A study of Mus musculus with 40 samples.

Results

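Serpine2, Plau, Plaur, Plat, F3, Tfpi, Tfpi2 and Thbd are 8 genes of the plasminogen system and of the control of blood coagulation, and their RNA was followed in mouse cardiac fibroblasts with and without the kinase TAK1. They were chosen by name from the 55414 Ensembl gene IDs of the deposited count table. All 8 were among the 25210 genes with at least 10 counts over the 40 libraries, and the lowest count of any of them in any library was 86. The cells were passage 1 fibroblasts from hearts of adult C57BL/6J mice carrying loxP sites around exon 2 of Map3k7, which encodes TAK1, so that every group had the floxed alleles. They were grown in medium with human bFGF. Serum starvation preceded the ligand, and so did an adenovirus with the CMV promoter in front of iCre (TAK1-deficient cells) or LacZ (controls). This promoter is active in most cell types, so recombination in cells other than fibroblasts was possible, and it was not measured by cell type. Each virus was followed by no ligand (CTRL), bFGF at 20 ng/ml, TGFβ at 10 ng/ml, IL-1β at 15 ng/ml or TNFα at 10 ng/ml for 24 h, which made 10 groups of 4 replicates. The study describes them as biological replicates from males, without saying whether each was a separate animal or isolation, so p-values measure the spread between these libraries.

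Plasminogen circulates as an inactive precursor. It is cut to plasmin, which dissolves fibrin and opens extracellular matrix, by urokinase (Plau) on its cell-surface receptor (Plaur) and by tissue-type activator (Plat), and both activators are held in check by serpins such as protease nexin-1 (Serpine2). Coagulation starts when tissue factor (F3) on a cell surface meets factor VII. That complex is blocked by tissue factor pathway inhibitor (Tfpi), while the related Tfpi2 is a matrix-bound inhibitor of plasmin and other serine proteases. Thrombomodulin (Thbd) binds thrombin at the cell surface and turns it towards activation of protein C. Tissue factor and the plasminogen activators are known products of stromal cells, and thrombomodulin and Tfpi are best known from endothelium.

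Library totals ran from 25360947 to 66160732 counts, with a median of 36183962. Values are given as CPM, the counts divided by the library total after scaling with edgeR's trimmed mean of M values. Map3k7 lay between 143.9 and 251.1 CPM in the 20 LacZ libraries and between 121.7 and 160.2 CPM in the 20 iCre libraries, and the ranges were apart within each of the 5 treatments; reads outside exon 2 are part of that count, so it checks the deletion only in part. Fibroblast markers dominated every library, with 10 marker genes summing to at least 15350 CPM. The 6 endothelial markers summed to 25.1 to 26.3 CPM in LacZ CTRL, 9.98 to 18 in iCre CTRL and 3.9 to 18.1 in the 8 ligand groups. The 4 markers of mural cells summed to 71.9 to 1920 CPM. Their median sums in CTRL, bFGF, TGFβ, IL-1β and TNFα were 378.5, 403.4, 946.6, 680.3 and 196.9 CPM in LacZ and 820, 840, 1315, 828.6 and 876.9 in iCre, the ranges of the viruses overlapping in each. The fibroblast medians in that order were 40770, 25680, 58850, 48000 and 31630 CPM in LacZ and 26100, 20150, 57180, 25140 and 17030 in iCre, with ranges apart under IL-1β and TNFα. In bulk RNA, fewer cells of a type and less RNA per cell cannot be told apart.

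Replicate 2 stood apart. Against the other 3 replicates of its group it was the highest library for F3 in 10 of 10 groups (1.85 to 9.79 times their mean), for Plau and Thbd in 9 and for Tfpi in 8, and the lowest for Tfpi2 in 8 and for Plaur and Serpine2 in 6. Its mural marker sum was the lowest of the 4 in 10 of 10 groups (71.9 to 729.9 CPM against 151.3 to 1920), and so were the leukocyte sum in 9 (16.4 to 50.1 CPM against 21.3 to 159.1) and the cardiomyocyte sum in 10 (0.407 to 14.8 CPM against 0.798 to 110.4). The endothelial sum was highest in 7 and the mesothelial sum in 3, and the fibroblast sum was lowest in 6. Within these lists the genes parted. Pdgfra was highest in replicate 2 in 10 of 10 groups, while the fibroblast genes Tcf21, Dcn, Vim and Postn were lowest in 10, 9, 9 and 8. Of the endothelial genes Cdh5 was highest in 10 and Kdr in 9, while Tek was lowest in 8, and of the mesothelial genes Msln was highest in 10 and Upk3b lowest in 10. Other replicates stood apart as well. Replicate 4 was the highest library for Tfpi2 in 9 groups and for Plaur in 8. Replicate 1 was highest for the fibroblast sum in 9 and the cardiomyocyte sum in 8, and lowest for the mesothelial sum in 9 and Thbd in 7. The part of these cell-type differences in the results below was not tested. Libraries with the same replicate number deviated together from their group means (mean r of 0.577 across 10567 genes). For different numbers the mean was -0.159, but deviations from a group mean cancel within the group, so this value is no separate contrast. Of 180 same-numbered pairs 1 was under 0.1 (r of 0.035), in groups that were not compared. Each comparison was therefore also fitted with the replicate number as a block, and without replicate 2. The virus also went with an order in the labels. The library names of LacZ end in S1 to S20 and those of iCre in S21 to S40, and the virus and this order cannot be told apart. The library numbers in the same names run from 31 to 40 in replicate 1 and from 51 to 80 in the other replicates.

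Scaled to exon length, Thbd and Serpine2 were the most abundant of the 8 in LacZ CTRL, at 75.0 ± 28.98 and 53.2 ± 9.18 RPKM (CPM per kilobase of exon; mean ± SD, n = 4). Plat followed at 26.95 ± 3.66 RPKM, Tfpi at 19.6 ± 3.42 and F3 at 12.2 ± 4.67. Plau stood at 6.38 ± 1.80, Tfpi2 at 2.25 ± 1.00 and Plaur at 2.21 ± 0.332 RPKM. Plaur and Tfpi2, the lowest in LacZ CTRL, were within their spread of each other there. The receptor Plaur had the widest range: its highest group mean, in iCre TGFβ, was 14.8 times its lowest, in LacZ CTRL. The same ratio was 5.91 for F3, 5.88 for Tfpi2 and for Thbd, 5.69 for Plau, 5.41 for Plat, 4.66 for Serpine2 and 2.67 for Tfpi. When the 10 groups were ordered by mean, the library ranges of neighbours overlapped for every gene at every step but 2, which were iCre CTRL over LacZ CTRL for Plaur and LacZ TNFα over LacZ TGFβ for Plat.

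**Figure D1:**
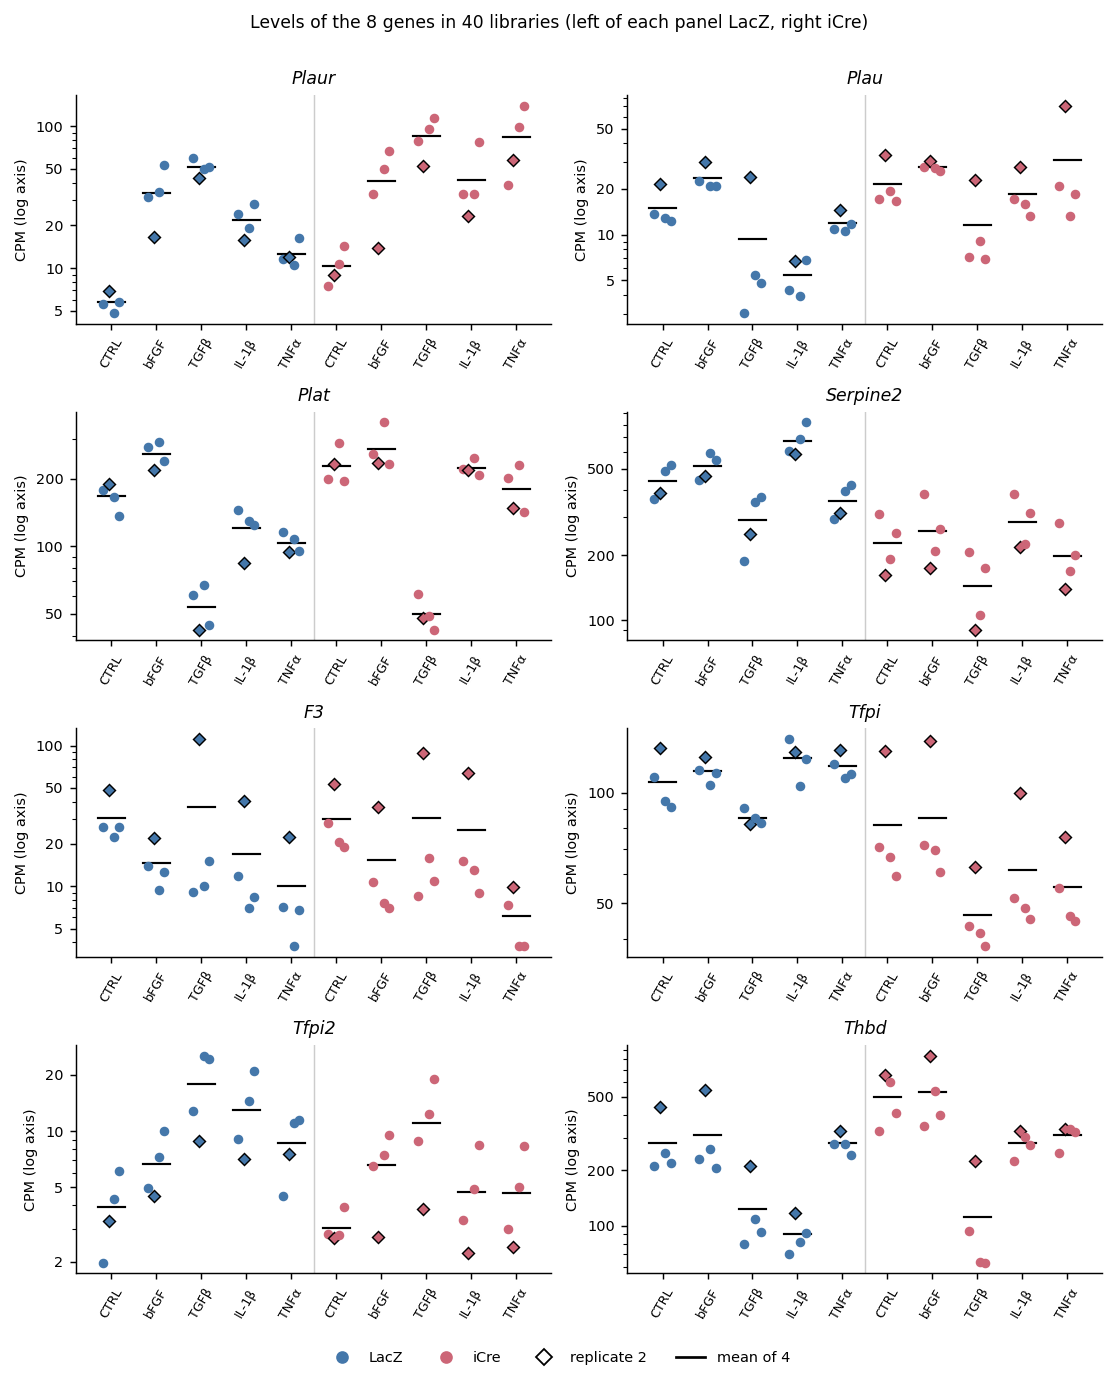
CPM (log axis) of the 8 genes in each of the 40 libraries, 1 panel a gene, with the 10 groups of virus and ligand along the x axis. Points are libraries, outlined diamonds are replicate 2 and bars are means of 4 replicates. F3 is highest in replicate 2 in all 10 groups (up to 111.6 CPM in LacZ TGFβ against 9.02 to 15.2 in the other replicates), and Plaur lies lowest in LacZ CTRL (4.81 to 6.92 CPM).

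In LacZ cells the lists of genes that passed differed between the ligands. Of the ligand pairs, only IL-1β and TNFα were tested against each other. Plaur rose with all 4 ligands, and no other of the 8 did so without the replicate block (Tfpi2 did with it). TGFβ and IL-1β each moved 5 of the 8, bFGF and TNFα 3 each, at an adjusted p of at most 0.05 by edgeR's quasi-likelihood test with Benjamini-Hochberg adjustment over all genes, the threshold used throughout. bFGF raised Plaur and Plat and lowered F3; across all genes tested, 11.6% passed. TGFβ raised Plaur and Tfpi2 and lowered Plat, Thbd and Serpine2, with 36.9% of all genes passing. IL-1β raised Plaur, Tfpi2 and Serpine2 and lowered Thbd and Plau, with 20.7% of all genes passing. TNFα raised Plaur and lowered F3 and Plat, with 21.3% of all genes passing. The median log2 fold change of the 8 was 0.44 for bFGF, -0.45 for TGFβ, -0.12 for IL-1β and -0.15 for TNFα, where the medians of all genes were -0.03, -0.17, -0.10 and -0.08. The 4 comparisons share the same CTRL libraries. With the replicate block, 6, 7, 8 and 6 of the 8 passed, against 27.3%, 42.0%, 33.5% and 35.5% of all genes.

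In TAK1-deficient cells Plaur again rose with all 4 ligands. bFGF moved no other of the 8 (1 of 8; 2.42% of all genes). TGFβ moved 5 of 8, raising Plaur and Tfpi2 and lowering Plat, Thbd and Tfpi (37.4% of all genes). IL-1β raised Plaur and lowered Thbd (2 of 8; 16.3%), and TNFα raised Plaur and lowered F3 and Thbd (3 of 8; 27%). Medians of the 8 were 0.22, -0.72, -0.11 and -0.24 on the log2 scale, where those of all genes were 0.00, -0.11, 0.00 and -0.04. With the replicate block 5, 7, 6 and 5 of the 8 passed, against 16.7%, 41.5%, 33.8% and 36.1% of all genes.

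**Figure D2:**
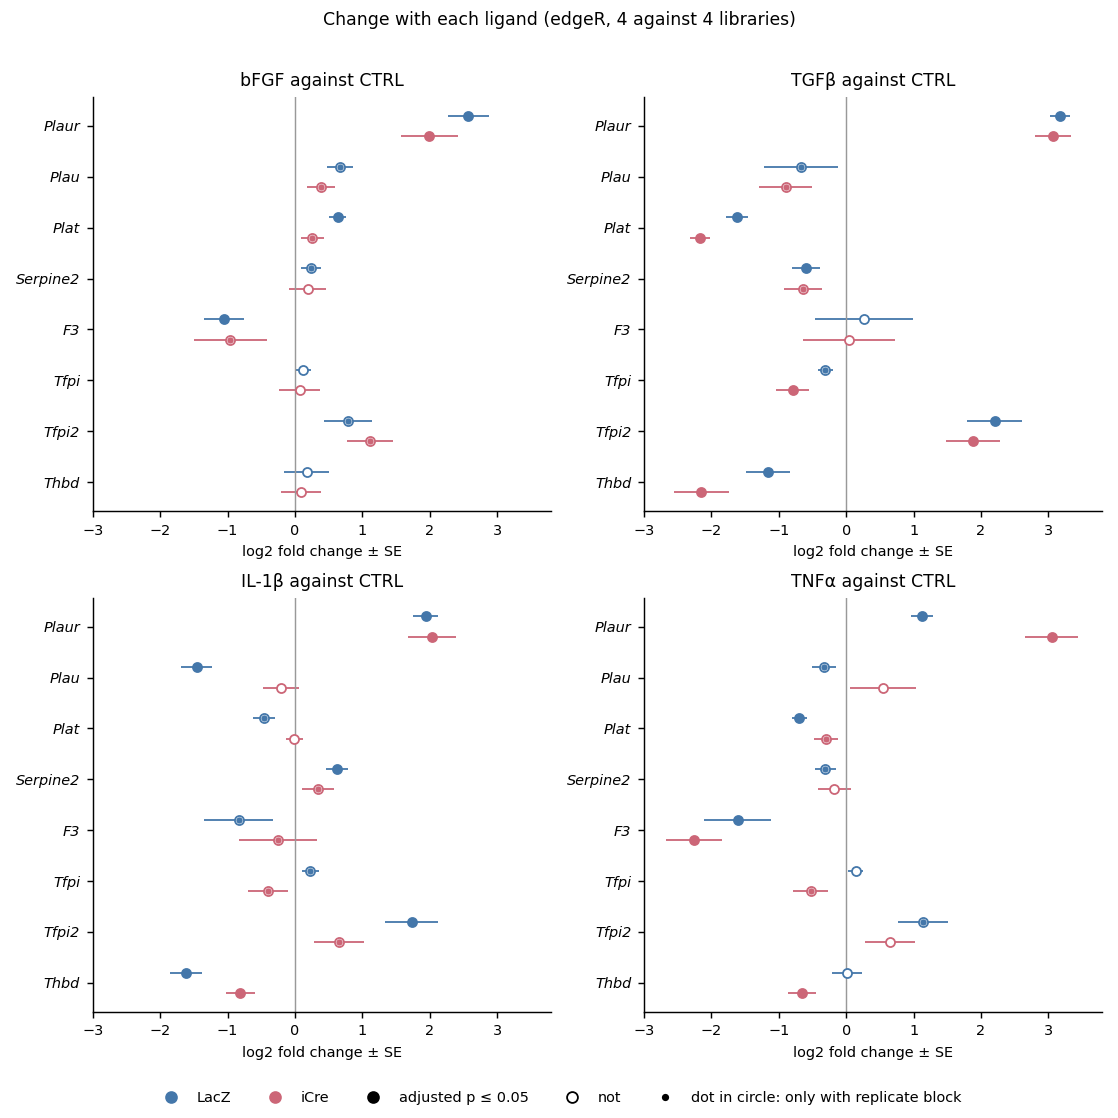
Log2 fold change of each ligand against CTRL for the 8 genes, in LacZ cells and in iCre cells, with bars of 1 SE from edgeR. Filled circles passed the threshold, open circles did not, and a dot inside an open circle marks a gene that passed with the replicate block and not in the unblocked fit of all replicates. Plaur is filled and above 0 with all 4 ligands in both, from 1.12 (TNFα in LacZ) to 3.17 (TGFβ in LacZ).

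Set directly against LacZ at the same treatment, iCre cells differed at 6 of the 8 genes with IL-1β and at 4 with TNFα. Without ligand none of the 8 passed in edgeR (0.0754% of all genes), 4 had an unadjusted p under 0.05 and DESeq2 called 3. With bFGF none passed in edgeR (0.0% of all genes), 1 had an unadjusted p under 0.05 and DESeq2 called 1. With TGFβ 1 passed, Tfpi, which was lower (8.37%). With IL-1β the 6 that passed were Plau, Plat and Thbd, higher in iCre, and Serpine2, Tfpi and Tfpi2, lower (16.1%). With TNFα the 4 were Plaur and Plat, higher in iCre, and Serpine2 and Tfpi, lower (27.3%). Correction for GC content ended the Tfpi calls under TGFβ (-0.35, adjusted p = 0.299) and IL-1β (-0.50, adjusted p = 0.186) and the Tfpi2 call (-0.89, adjusted p = 0.253). Medians of the 8 were 0.20, 0.09, -0.23, 0.71 and -0.26 in that order of treatments, where those of all genes were -0.04, 0.00, 0.00, 0.04 and 0.00. With the replicate block 6, 3, 5, 8 and 6 of the 8 passed, against 14.5%, 13.9%, 20.8%, 29.5% and 32.2% of all genes.

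**Figure D3:**
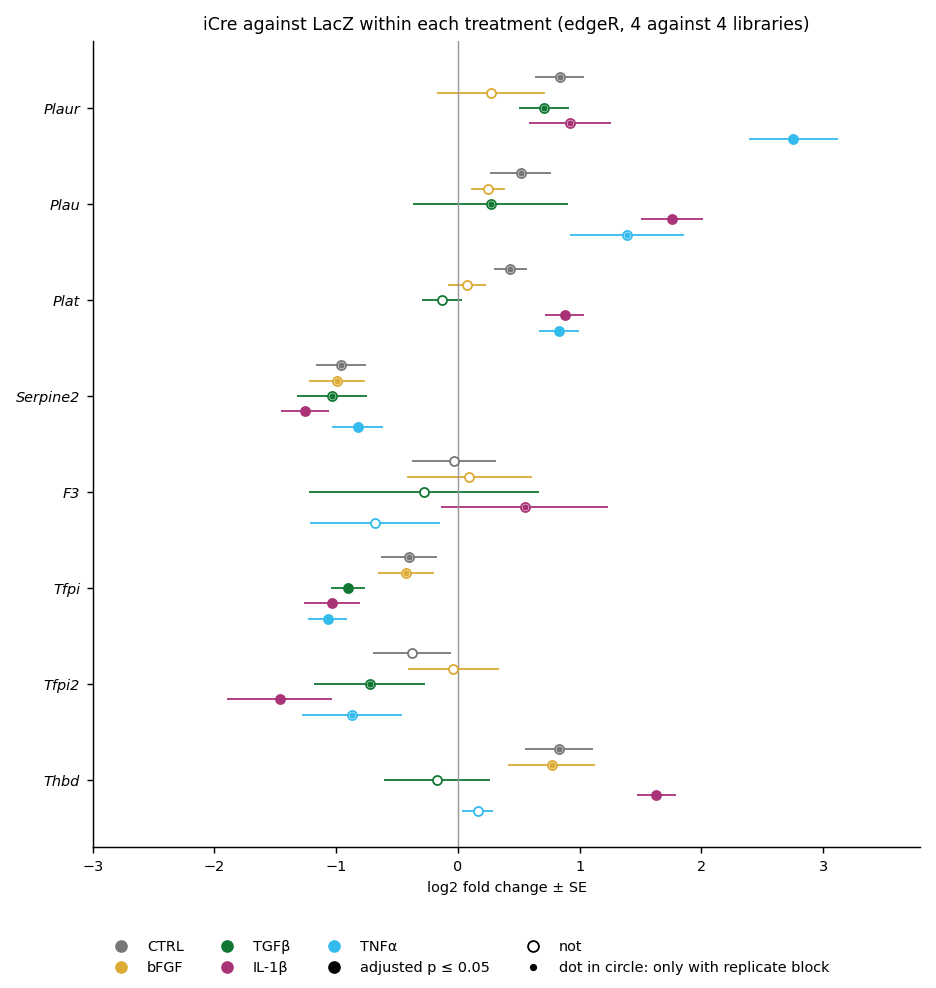
Log2 fold change of iCre against LacZ for the 8 genes within each of the 5 treatments, with bars of 1 SE from edgeR. Filled circles passed the threshold, open circles did not, and a dot inside an open circle marks a gene that passed with the replicate block and not in the unblocked fit of all replicates. The values are not corrected for GC content, a correction that ended the Tfpi calls under TGFβ and IL-1β and the Tfpi2 call. Serpine2 lies below 0 in all 5 treatments, from -1.26 (IL-1β) to -0.82 (TNFα), and Plaur is highest under TNFα at 2.76.

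Whether a ligand's effect differed between the viruses was tested by the interaction term over 16 libraries. Of the 8 genes, 1 passed: the rise of Plaur with TNFα was larger in iCre, by 1.92 ± 0.44 (adjusted p = 0.00728) (16.1% of all genes). For IL-1β none passed in edgeR (7.71%), 2 had an unadjusted p under 0.05 and DESeq2 called 1. For TGFβ none passed in edgeR (4.51%), 1 had an unadjusted p under 0.05 and DESeq2 called 0. For bFGF none passed in edgeR (0.0%), 0 had an unadjusted p under 0.05 and DESeq2 called 0. With the replicate block the counts were 3, 4, 1 and 0, against 25.1%, 16.9%, 8.04% and 0.0% of all genes, and the genes are named below. The Plaur interaction was lost without replicate 3 (adjusted p = 0.0905), its highest adjusted p among the 4 fits that each left out 1 replicate.

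Plaur encodes the urokinase receptor, a surface protein that holds urokinase at the cell edge. The gene lies at chr7:24462484-24475968 on the plus strand of GRCm38. In LacZ CTRL replicates 1 to 4 it stood at 5.604, 6.92, 4.81 and 5.81 CPM, and with bFGF at 31.9, 16.6, 34.3 and 52.96, with TGFβ at 60.2, 43.3, 50.4 and 51.4, with IL-1β at 24.1, 15.8, 19.2 and 28.5 and with TNFα at 11.6, 11.9, 10.4 and 16.3. No ligand-treated LacZ library overlapped the CTRL libraries. The log2 fold change was 3.17 ± 0.14 (adjusted p = 6.43e-07) with TGFβ, a 9.004-fold rise. With bFGF it was 2.57 ± 0.30 (adjusted p = 0.00121), with IL-1β 1.94 ± 0.19 (adjusted p = 0.000118) and with TNFα 1.12 ± 0.16 (adjusted p = 0.00114). All 4 LacZ rises passed under each of the 14 alternative settings. TNFα gave the smallest LacZ rise, and IL-1β exceeded it by 0.80 ± 0.19 (adjusted p = 0.0256), a call that was lost without replicate 1 or 3 (adjusted p up to 0.136) and with all 40 libraries in one fit (0.226).

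In iCre CTRL Plaur stood at 7.495, 8.94, 10.7 and 14.4 CPM, above every LacZ CTRL library. It reached 33.2, 13.96, 49.8 and 67.2 with bFGF and 79.1, 52.4, 96 and 115 with TGFβ. It reached 33.2, 23.3, 33.3 and 77.9 with IL-1β and 38.6, 57.7, 99.4 and 140 with TNFα. In bFGF replicate 2 it lay within the CTRL range, and the other ligand ranges were clear of it. The log2 fold changes were 3.06 ± 0.27 (adjusted p = 1.12e-05) with TGFβ and 3.05 ± 0.39 (adjusted p = 0.000528) with TNFα. With IL-1β it was 2.03 ± 0.36 (adjusted p = 0.0045) and with bFGF 1.99 ± 0.42 (adjusted p = 0.0421); the bFGF call was lost without replicate 1, 3 or 4 (adjusted p up to 0.335). TNFα raised Plaur 8.26-fold in TAK1-deficient cells and 2.18-fold in LacZ cells, and under TNFα the iCre level was 6.76-fold the LacZ level (2.76 ± 0.36, adjusted p = 0.000596). Marker sums moved with the virus under TNFα as well, the mural sum lying at 71.9 to 368.2 CPM in LacZ and 302.4 to 1156 in iCre and the fibroblast sum at 25800 to 34600 and 15350 to 23390, and their part in the iCre and LacZ differences was not tested. The iCre excess did not pass in the unblocked fit of all 4 replicates in CTRL, TGFβ or IL-1β. It passed with the replicate block in CTRL (0.81, adjusted p = 0.00142), TGFβ (0.66, adjusted p = 0.00025) and IL-1β (0.81, adjusted p = 4.92e-05), and also in DESeq2 (adjusted p = 0.00506, 0.0135 and 0.0426 in that order) and without replicate 2 (adjusted p = 0.042, 0.0016 and 0.0352). Plaur transcripts have 53.0% GC, the highest of the members. With GC correction the excess was 0.82 (adjusted p = 0.135), 0.52 (adjusted p = 0.341) and 0.74 (adjusted p = 0.23) in that order. With block and correction together it was 0.79 (adjusted p = 0.00146), 0.47 (adjusted p = 0.0101) and 0.63 (adjusted p = 0.00139). Under TNFα the corrected excess was 2.57 (adjusted p = 0.00123). With bFGF it was 0.27 ± 0.44 (adjusted p = 0.852). All 4 same-numbered pairs were higher in iCre in every treatment but bFGF, where 3 were.

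The promoter window of Plaur is shown because it is the member raised by every ligand and because it holds a match to the AP-1 motif (TGANTCA), the site of JUN and FOS factors. The 250 bases before the RefSeq start, chr7:24462233-24462482 on the plus strand of GRCm38.p6, are printed 5′ to 3′ with the match in capitals, 69 bases before the start.
Plaur: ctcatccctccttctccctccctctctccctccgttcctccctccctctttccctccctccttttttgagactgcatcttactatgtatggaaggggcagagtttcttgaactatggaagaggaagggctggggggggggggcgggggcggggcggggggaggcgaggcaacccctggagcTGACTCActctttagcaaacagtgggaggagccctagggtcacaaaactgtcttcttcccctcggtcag
Of 32851 promoter windows of 300 bases searched on both strands, 7.81% held this motif, and 3 of the 8 windows given for the members did (1 each of Plaur, F3 and Tfpi2). No member window held the CRE motif (TGACGTCA; 1.79% of all windows) or the NF-kB consensus (5.8%). The SMAD repeat CAGACA (21% of all windows) was in 2 overlapping windows of Tfpi2, at the same bases. A match describes the letters in these windows only. Windows were given for Serpine2, Plaur, F3, Tfpi and Tfpi2.

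Plau encodes urokinase, the activator that Plaur binds, and lies at chr14:20836660-20843385 on the plus strand of GRCm38. It followed a different course from its receptor. LacZ libraries held 13.8, 21.4, 12.9 and 12.3 CPM in CTRL, 22.5, 30.3, 20.9 and 20.9 with bFGF and 4.34, 6.65, 3.92 and 6.78 with IL-1β. It stood at 3.04, 24.04, 5.45 and 4.77 with TGFβ and 10.9, 14.6, 10.5 and 11.7 with TNFα. All IL-1β libraries lay below all CTRL libraries, and the log2 fold change was -1.46 ± 0.23 (adjusted p = 0.00179), a fall to 0.365 of the CTRL level that passed under all 14 alternatives. In the TGFβ group 3 libraries were low and replicate 2 was at 24.0 CPM. The change was -0.67 ± 0.55 (adjusted p = 0.374) with all 4, -1.10 (adjusted p = 0.0129) with the replicate block and -1.55 (adjusted p = 8.59e-05) without replicate 2. bFGF did not pass at 0.67 ± 0.20 (adjusted p = 0.0527), and passed with the block (0.69, adjusted p = 4.42e-05) and without replicate 2 (0.72, adjusted p = 0.00124). TNFα passed with the block (-0.31, adjusted p = 0.00986), and the log2 fold change of IL-1β against TNFα was -1.14 ± 0.20 (adjusted p = 0.00523), a call lost with all 40 libraries in one fit (adjusted p = 0.149).

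In iCre cells the fall of Plau with IL-1β did not pass (-0.20 ± 0.27, adjusted p = 0.676). The libraries stood at 17.2, 33.5, 19.5 and 16.6 CPM in CTRL, 17.2, 28.03, 15.9 and 13.3 with IL-1β and 20.8, 70.9, 13.3 and 18.5 with TNFα. With bFGF they stood at 28, 30.3, 27.5 and 26.4 and with TGFβ at 7.14, 22.98, 9.06 and 6.86. Under IL-1β every iCre library lay above every LacZ library, 3.38-fold on average (1.76 ± 0.26, adjusted p = 0.00132). The interaction with IL-1β was 1.24 ± 0.39 (adjusted p = 0.0616), and passed with the block (1.22, adjusted p = 0.000231) and without replicate 2 (1.15, adjusted p = 0.0109). Under TNFα the iCre excess was 1.39 ± 0.47 (adjusted p = 0.0521), with the block 1.07 (adjusted p = 0.0166), and without replicate 2, which held 70.9 CPM, 0.66 (adjusted p = 0.0193). With the block iCre also exceeded LacZ in CTRL (0.49, adjusted p = 0.000748) and TGFβ (0.54, adjusted p = 0.0224), and within iCre bFGF raised (0.43, adjusted p = 0.0211) and TGFβ lowered Plau (-1.02, adjusted p = 4.05e-05). Without ligand and with TGFβ the unblocked differences between the viruses were 0.52 ± 0.25 (adjusted p = 0.388) and 0.27 ± 0.63 (adjusted p = 0.885).

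Plat encodes the tissue-type activator, the main activator in fibrin clots, and lies at chr8:22757727-22782844 on the plus strand of GRCm38. In LacZ it stood at 178, 191, 167 and 137 CPM in CTRL, 276, 219, 294 and 240 with bFGF and 60.5, 42.5, 67.4 and 44.8 with TGFβ. It stood at 145, 84.1, 129.8 and 124 with IL-1β and 116, 94.2, 108 and 95.6 with TNFα. TGFβ gave the lowest levels in both viruses, clear of the CTRL ranges: the log2 fold change was -1.62 ± 0.17 (adjusted p = 4.11e-05) in LacZ and -2.17 ± 0.15 (adjusted p = 3.05e-06) in iCre, falls of 3.08-fold and 4.49-fold that passed under all 14 alternatives. TNFα lowered Plat in LacZ, at a log2 change of -0.70 ± 0.11 (adjusted p = 0.00204), also under all 14. bFGF raised it by 0.63 ± 0.13 (adjusted p = 0.0135), lost without replicate 1, 3 or 4 (adjusted p up to 0.138), and IL-1β did not pass at -0.47 ± 0.16 (adjusted p = 0.0668) and passed with the block (-0.48, adjusted p = 0.000288).

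In iCre cells Plat stood at 199, 232, 288 and 196 CPM in CTRL, 259, 235, 358 and 234 with bFGF and 61.5, 47.7, 48.9 and 42.6 with TGFβ. It stood at 222, 218, 248 and 207 with IL-1β and 203, 148, 232 and 142 with TNFα. In the unblocked fit of all 4 replicates TGFβ alone passed. With the block, bFGF (0.25, adjusted p = 0.0336) and TNFα (-0.32, adjusted p = 0.0376) passed too. Under IL-1β and under TNFα all iCre libraries lay above all LacZ libraries, by 0.88 ± 0.16 (adjusted p = 0.00413) and by 0.83 ± 0.16 (adjusted p = 0.00444), both under all 14 alternatives. In CTRL the ranges were also apart, and the difference was 0.43 ± 0.14 (adjusted p = 0.211) and passed with the block (0.43, adjusted p = 0.00216). Under bFGF and TGFβ it was 0.08 ± 0.16 (adjusted p = 0.89) and -0.13 ± 0.16 (adjusted p = 0.711). No interaction for Plat passed with or without the block.

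Serpine2 encodes protease nexin-1, a cell-bound inhibitor of thrombin, urokinase, plasmin and tissue-type activator, and lies at chr1:79794197-79861180 on the minus strand of GRCm38. Its LacZ levels were 364, 389, 490 and 519.8 CPM in CTRL and 607, 582, 688 and 819.8 with IL-1β, with every IL-1β library above every CTRL library. It stood at 187, 249.5, 352 and 370.3 with TGFβ, 445, 465, 593 and 551 with bFGF and 295, 313, 395 and 421 with TNFα. IL-1β raised it by 0.62 ± 0.16 (adjusted p = 0.0186), lost without replicate 1 or 3 (adjusted p up to 0.0762), with raw library sizes and with all 40 libraries in one fit. TGFβ lowered it, at a log2 change of -0.59 ± 0.21 (adjusted p = 0.0483), a call lost on leaving out any one replicate (adjusted p of 0.0528 to 0.0965), with RLE factors and with all 40 libraries in one fit. All 4 pairs were lower with TGFβ and higher with IL-1β. With the block bFGF (0.25, adjusted p = 0.0139) and TNFα (-0.31, adjusted p = 0.000148) passed as well, and IL-1β exceeded TNFα by 0.92 ± 0.15 (adjusted p = 0.00339) under all 14 alternatives.

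Serpine2 was lower in iCre in all 4 same-numbered pairs of every treatment but TGFβ, where 3 were lower. The iCre libraries stood at 308, 162, 191 and 253 CPM in CTRL and 384, 174, 209 and 264 with bFGF. They stood at 207, 90.6, 106 and 174 with TGFβ, 384, 217, 225 and 312 with IL-1β and 282, 140.3, 169 and 200.3 with TNFα. The iCre and LacZ ranges were apart in 4 of 5 treatments and overlapped under TGFβ, where replicate 1 was higher in iCre. The difference passed under IL-1β (-1.26 ± 0.20, adjusted p = 0.00186) and TNFα (-0.82 ± 0.21, adjusted p = 0.0162), the latter lost without replicate 3 or 4 (adjusted p up to 0.127). It was -0.96 ± 0.21 (adjusted p = 0.0915) in CTRL, -0.99 ± 0.23 (adjusted p = 0.275) with bFGF and -1.03 ± 0.29 (adjusted p = 0.0544) with TGFβ. With the block all 3 passed, with -0.99 (adjusted p = 6.36e-05), -1.05 (adjusted p = 9.74e-06) and -1.07 (adjusted p = 0.000308). No Serpine2 interaction passed with or without the block, the estimates lying between -0.30 and 0.12 with SEs of 0.30 to 0.39. Within iCre no ligand passed in the unblocked fit of all 4 replicates. TGFβ passed without replicate 2 (-0.61, adjusted p = 0.0461) and with all 40 libraries in one fit. With the block TGFβ lowered (-0.68, adjusted p = 3.16e-05) and IL-1β raised Serpine2 (0.34, adjusted p = 2.88e-05).

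The 2 activators were also summed per length. Plau and Plat together came to 33.3 ± 5.15 RPKM in LacZ CTRL (SD, n = 4), 12.6 ± 3.34 with TGFβ and 21.6 ± 3.75 with IL-1β. In iCre the sums were 45.8 ± 8.26 RPKM in CTRL, 12.9 ± 3.24 with TGFβ and 43.7 ± 3.74 with IL-1β. LacZ libraries came to 51.2 ± 4.28 RPKM with bFGF, all above CTRL, and 21.6 ± 1.23 with TNFα. All LacZ libraries with TGFβ, IL-1β or TNFα lay below CTRL. In iCre the TGFβ libraries lay below CTRL, and those with bFGF (55.4 ± 9.29), IL-1β and TNFα (42.1 ± 9.45) overlapped it. These are RNA levels, and protein or activity was not analysed here.

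F3 encodes tissue factor, the membrane protein that starts coagulation, and lies at chr3:121723537-121735048 on the plus strand of GRCm38. Replicate 2 was its highest library in all 10 groups. In LacZ it stood at 26.2, 48.2, 22.2 and 26.4 CPM in CTRL, 14, 22.1, 9.38 and 12.6 with bFGF and 7.09, 22.5, 3.79 and 6.82 with TNFα. It stood at 9.02, 112, 10.02 and 15.2 with TGFβ and 11.8, 40.6, 7.05 and 8.43 with IL-1β. All 4 pairs were lower with bFGF, IL-1β and TNFα. bFGF lowered F3, at a log2 change of -1.06 ± 0.29 (adjusted p = 0.0453) and so did TNFα at -1.61 ± 0.49 (adjusted p = 0.0422). Both calls were lost without replicate 1, 3 or 4 (adjusted p up to 0.193 and 0.167) and with all 40 libraries in one fit, and the bFGF call also with raw library sizes. Without replicate 2 they were -1.06 (adjusted p = 0.0011) and -2.09 (adjusted p = 6.45e-05). IL-1β was -0.84 ± 0.51 (adjusted p = 0.29), with the block -1.13 (adjusted p = 8.02e-08), and without replicate 2 -1.46 (adjusted p = 0.000145).

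The direction of the TGFβ change in F3 turned on that replicate, since 3 of 4 pairs were lower and replicate 2 went from 48.2 to 111.6 CPM. The LacZ change was 0.27 ± 0.73 (adjusted p = 0.818) with all 4 replicates, -0.56 (adjusted p = 0.278) with the block and -1.13 (adjusted p = 0.000306) without replicate 2. In iCre it was 0.04 ± 0.68 (adjusted p = 0.991), -0.50 (adjusted p = 0.186) and -0.92 (adjusted p = 0.00442). iCre libraries stood at 28.01, 53.5, 20.5 and 19.1 CPM in CTRL, 8.53, 87.9, 15.8 and 10.9 with TGFβ and 7.299, 9.85, 3.78 and 3.73 with TNFα. They stood at 10.8, 36.4, 7.601 and 6.99 with bFGF and 15.03, 63.7, 12.9 and 8.91 with IL-1β. TNFα lowered F3 in iCre with no library above any CTRL library, and the change of -2.26 ± 0.41 (adjusted p = 0.00294) passed under all 14 alternatives, a 4.79-fold fall. With bFGF in iCre the change was -0.96 ± 0.54 (adjusted p = 0.416), with the block -1.17 (adjusted p = 8.43e-06) and without replicate 2 -1.41 (adjusted p = 0.00155). With IL-1β it was -0.25 ± 0.58 (adjusted p = 0.837), with the block -0.55 (adjusted p = 1.76e-07) and without replicate 2 -0.85 (adjusted p = 0.0145), where 3 of 4 pairs were lower and replicate 2 was higher. The blocked SE of 0.093 in this comparison rests on 3 residual degrees of freedom of F3 and 148 shared by all genes. No difference between iCre and LacZ passed in any treatment, with estimates from -0.68 to 0.55 and SEs of 0.34 to 0.95. These estimates moved with replicate 2, without which that for TNFα went from -0.68 to -0.25 and that for bFGF from 0.09 to -0.50, a change of sign. With the block the IL-1β difference passed (0.48, adjusted p = 0.00303). Between the inflammatory ligands, IL-1β left more F3 than TNFα in all 4 pairs of both viruses, and this passed with the block (0.70, adjusted p = 1.9e-06 in LacZ and 1.71, adjusted p = 7.04e-05 in iCre).

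The F3 window is shown because it holds 2 AP-1 motifs 11 bases apart, 146 and 135 bases before the RefSeq start. The 250 bases before that start, chr3:121723287-121723536 on the plus strand of GRCm38.p6, are printed 5′ to 3′ with both matches in capitals. F3 fell with bFGF and TNFα in LacZ while Plaur rose with both, and both windows hold the motif. Any part of the motif in either change was not tested.
F3: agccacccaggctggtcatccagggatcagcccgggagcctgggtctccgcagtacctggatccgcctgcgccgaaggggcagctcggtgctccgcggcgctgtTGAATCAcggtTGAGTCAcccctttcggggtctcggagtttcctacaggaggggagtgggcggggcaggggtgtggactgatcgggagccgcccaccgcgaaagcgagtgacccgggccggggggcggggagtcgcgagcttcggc

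Tfpi encodes the main inhibitor of the tissue factor complex and lies at chr2:84432855-84476775 on the minus strand of GRCm38. Its group means varied least of the 8. In LacZ it stood at 110, 132, 95.02 and 91.1 CPM in CTRL, 90.6, 81.9, 85.1 and 82.5 with TGFβ and 139.9, 128, 104 and 124 with IL-1β. It stood at 115, 125, 105 and 113 with bFGF and 119, 130.2, 109 and 112 with TNFα, and no LacZ ligand passed. TGFβ did not pass at -0.31 ± 0.11 (adjusted p = 0.052) with ranges apart, and passed with the block (-0.30, adjusted p = 0.0236), as did IL-1β (0.23, adjusted p = 0.0265). iCre libraries stood at 70.9, 129.6, 66.8 and 59.4 CPM in CTRL, 43.4, 62.6, 41.6 and 38.1 with TGFβ and 51.7, 99.9, 48.7 and 45.3 with IL-1β. They stood at 72.1, 138, 69.9 and 60.8 with bFGF and 54.9, 75.6, 46.3 and 44.8 with TNFα. TGFβ lowered Tfpi in iCre, at a log2 change of -0.79 ± 0.24 (adjusted p = 0.0252), a call lost without replicate 1 or 3 (adjusted p up to 0.0780).

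Between the viruses Tfpi was lower in iCre under TGFβ (-0.90 ± 0.14, adjusted p = 0.00365), IL-1β (-1.03 ± 0.23, adjusted p = 0.0119) and TNFα (-1.07 ± 0.16, adjusted p = 0.00117), with ranges apart in all 3. The TGFβ call was lost without replicate 3 (adjusted p = 0.0597) and the IL-1β call without replicate 1, 3 or 4 (adjusted p up to 0.0827). In CTRL and with bFGF the differences were -0.40 ± 0.23 (adjusted p = 0.466) and -0.43 ± 0.23 (adjusted p = 0.544), and passed with the block (-0.46, adjusted p = 0.00202 and -0.50, adjusted p = 0.00294). GC content moved with expression in the same 3 iCre groups. Relative to the mean of all libraries, log2 CPM changed by 0.217 to 0.33 per 10 percentage points of GC in the iCre TGFβ, IL-1β and TNFα libraries and by -0.243 to -0.014 in the others. Tfpi transcripts have 39.7% GC and Tfpi2 transcripts 39.3%, the lowest of the 8. After a correction for GC the Tfpi difference between the viruses was -0.35 (adjusted p = 0.299) under TGFβ, -0.50 (adjusted p = 0.186) under IL-1β and -0.53 (adjusted p = 0.0321) under TNFα, and with block and correction together -0.38 (adjusted p = 0.0176), -0.56 (adjusted p = 0.00252) and -0.56 (adjusted p = 0.00215). The fall with TGFβ in iCre became -0.28 (adjusted p = 0.386) and, with the block, -0.23 (adjusted p = 0.0581). With the block alone iCre also fell with IL-1β (-0.40, adjusted p = 6.93e-07) and TNFα (-0.49, adjusted p = 0.0011), and the interactions with IL-1β (-0.66, adjusted p = 0.0173) and TNFα (-0.67, adjusted p = 0.00378) passed; none of these 4 passed once GC was corrected as well.

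Tfpi2 encodes a matrix-bound inhibitor of plasmin and lies at chr6:3962595-3988919 on the minus strand of GRCm38. LacZ libraries held 1.97, 3.29, 4.35 and 6.101 CPM in CTRL, 12.9, 8.84, 25.4 and 24.5 with TGFβ and 9.104, 7.06, 14.6 and 20.97 with IL-1β. It stood at 4.95, 4.504, 7.3 and 10.1 with bFGF and 4.51, 7.51, 11.1 and 11.5 with TNFα. All 4 pairs were higher with every ligand. TGFβ raised it 4.599-fold (2.20 ± 0.41, adjusted p = 0.00167), under all 14 alternatives, and IL-1β 3.32-fold (1.73 ± 0.40, adjusted p = 0.012), lost without replicate 3 (adjusted p = 0.0777). bFGF and TNFα passed with the block (0.82, adjusted p = 0.000623 and 1.16, adjusted p = 1.69e-07), where the unblocked changes were 0.79 ± 0.36 (adjusted p = 0.198) and 1.14 ± 0.37 (adjusted p = 0.0544). The window with an AP-1 match 77 bases before a RefSeq start is shown for comparison with Plaur and F3, as 29 bases at chr6:3968435-3968463 on the minus strand of GRCm38.p6, with the match in capitals.
Tfpi2: tgcctaaggcgTGAATCAgccacgttatg

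iCre libraries held 2.81, 2.66, 2.77 and 3.93 CPM of Tfpi2 in CTRL, 8.86, 3.85, 12.4 and 19.03 with TGFβ and 3.35, 2.24, 4.88 and 8.48 with IL-1β. They held 6.49, 2.72, 7.45 and 9.57 with bFGF and 3.001, 2.403, 5.002 and 8.33 with TNFα. TGFβ raised Tfpi2 in iCre by 1.88 ± 0.40 (adjusted p = 0.0037), under all 14 alternatives. IL-1β and TNFα did not pass, at 0.65 ± 0.37 (adjusted p = 0.282) and 0.65 ± 0.37 (adjusted p = 0.228). With GC correction they were 1.203 (adjusted p = 0.0737) and 1.18 (adjusted p = 0.0468), and with the block as well 1.08 (adjusted p = 2.09e-07) and 1.05 (adjusted p = 0.00476), where TNFα in LacZ was 1.12 with GC correction (adjusted p = 0.054). Under IL-1β all 4 iCre libraries were below their same-numbered LacZ libraries (-1.47 ± 0.43, adjusted p = 0.0433), a call lost without replicate 1 or 3 (adjusted p up to 0.192). With GC correction it was -0.89 (adjusted p = 0.253), and with the block as well -0.93 (adjusted p = 1.43e-05). With the block bFGF (1.01, adjusted p = 0.00196) and IL-1β (0.53, adjusted p = 0.0038) raised Tfpi2 in iCre. With the block iCre was also lower under TGFβ (-0.80, adjusted p = 0.000191) and TNFα (-0.93, adjusted p = 0.00742), and the IL-1β interaction passed (-1.18, adjusted p = 0.00543). These last 3 did not pass with GC correction in the same fit (adjusted p = 0.499, adjusted p = 0.269 and adjusted p = 0.15).

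Thbd encodes thrombomodulin, which turns thrombin from a procoagulant to an activator of protein C, and lies at chr2:148404466-148408188 on the minus strand of GRCm38. Its LacZ levels were 209.9, 439, 249 and 219.5 CPM in CTRL, 70.5, 117, 81.1 and 91.5 with IL-1β and 277, 326, 276 and 241 with TNFα. It stood at 79.3, 211, 108 and 92.8 with TGFβ and 230, 542, 262 and 205 with bFGF. IL-1β and TNFα parted for this gene: all IL-1β libraries lay below all CTRL and all TNFα libraries. IL-1β lowered Thbd 3.06-fold (-1.61 ± 0.24, adjusted p = 0.0012), under all 14 alternatives, and TNFα gave 0.01 ± 0.22 (adjusted p = 0.993). The difference between the ligands was -1.64 ± 0.15 (adjusted p = 0.000133), again under all 14. TGFβ lowered it, at a log2 change of -1.16 ± 0.32 (adjusted p = 0.0163), lost without replicate 3 or 4 (adjusted p up to 0.0727), and bFGF gave 0.17 ± 0.33 (adjusted p = 0.793). The 6 endothelial markers moved with these falls, their sum having medians of 25.7 CPM in LacZ CTRL, 8.31 with IL-1β and 8.65 with TGFβ, but it was also lower with bFGF (12.9) and TNFα (10.02), where the change of Thbd did not pass. Tek reached 24.7 CPM, Cdh5 12.4, Kdr 9.003, Pecam1 1.32, Esam 1.26 and Tie1 0.959, and Thbd ran from 62.7 to 837.3 CPM over the 40 libraries. The part of endothelial cells in the Thbd values was not tested.

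In iCre Thbd stood at 328, 661, 605 and 406 CPM in CTRL, 93.1, 226, 63.7 and 62.7 with TGFβ and 223, 327, 301 and 274 with IL-1β. It stood at 345, 837, 534 and 399.5 with bFGF and 249, 333, 334 and 322 with TNFα. TGFβ gave the largest fall, 4.43-fold (-2.15 ± 0.41, adjusted p = 0.00194), under all 14 alternatives. IL-1β lowered it, at a log2 change of -0.81 ± 0.21 (adjusted p = 0.0267), lost without replicate 3 or 4 (adjusted p up to 0.137), and so did TNFα with -0.66 ± 0.21 (adjusted p = 0.0459), lost without replicate 2, 3 or 4 (adjusted p up to 0.184). Both calls were also lost with all 40 libraries in one fit. Under IL-1β every iCre library lay above every LacZ library, 3.097-fold (1.63 ± 0.16, adjusted p = 0.00019), under all 14 alternatives. In CTRL and with bFGF iCre was higher in all 4 pairs, by 0.83 ± 0.28 (adjusted p = 0.227) and 0.77 ± 0.36 (adjusted p = 0.498), and this passed with the block (0.84, adjusted p = 1.02e-05 and 0.80, adjusted p = 6.14e-07). With TGFβ and TNFα the difference was -0.17 ± 0.43 (adjusted p = 0.894) and 0.16 ± 0.13 (adjusted p = 0.386). No interaction passed in the unblocked fit of all 4 replicates. With the block 3 did, the change being lower in iCre with TGFβ (-1.11, adjusted p = 0.0113) and TNFα (-0.68, adjusted p = 0.0205) and higher with IL-1β (0.80, adjusted p = 0.00179). The TGFβ interaction also passed without replicate 2 (-1.35, adjusted p = 0.0093). The median endothelial marker sum was 13.2 CPM in iCre CTRL against 25.7 in LacZ CTRL, 9.93 against 12.9 with bFGF and 5.65 against 8.65 with TGFβ. It was 9.18 against 8.31 with IL-1β, with overlapping ranges, and 10.4 against 10.02 with TNFα.

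IL-1β and TNFα, which both signal through TAK1, were compared with each other in each virus. In LacZ 4 of 8 differed, Serpine2 and Plaur being higher and Plau and Thbd lower with IL-1β (9.62% of all genes passed), and 7 with the block (24.2%). In iCre 0 passed in edgeR (2.65%), 1 had an unadjusted p under 0.05, DESeq2 called 1, and 4 passed with the block (17.1%). Those 4 were F3, Serpine2 (0.53, adjusted p = 0.000282) and Plat (0.33, adjusted p = 0.0272), higher with IL-1β, and Plaur (-0.997, adjusted p = 0.00057), lower. For Plaur the sign was opposite in LacZ and iCre, and a test of that difference between the viruses was not run. Over the 2 viruses the median of the 8 was 0.40 and 0.08, where that of all genes was 0.00 and 0.02.

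A wider list of 39 other genes of the plasminogen and coagulation pathways had 32 genes with enough counts to test. Plg, which encodes plasminogen, was under 10 counts over the 40 libraries, as were Cpb2, F2, F9, F10, F11 and F13b, most of which encode proteins made in liver. Of the 32, 18 reached 1 CPM in some group. With bFGF, TGFβ, IL-1β and TNFα in LacZ 8, 13, 7 and 6 of the 32 passed, of which 6, 8, 4 and 4 were higher. In iCre 1, 12, 6 and 9 passed, of which 1, 7, 5 and 7 were higher. Between iCre and LacZ 2 passed with TGFβ, both lower in iCre, 3 with IL-1β and 8 with TNFα, of which 2 and 4 were higher. In CTRL and with bFGF 0 passed in edgeR (0.0754% and 0.0% of all genes), 4 and 2 had an unadjusted p under 0.05 and DESeq2 called 1 and 1. Interactions passed for 0, 1, 1 and 4 genes with bFGF, TGFβ, IL-1β and TNFα, with 0 unadjusted and 0 in DESeq2 for bFGF. The shares were 0.0%, 3.12%, 3.12% and 12.5%, against 0.0%, 4.51%, 7.71% and 16.1% of all genes. The shares of all genes are the background of these counts.

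The genes named from this list, by their largest passing change, fell into inhibitors and binding proteins of the plasminogen system, coagulation factors, anticoagulants and thrombin receptors. Serpinb2 (PAI-2, an inhibitor of urokinase) rose from 1.52 ± 1.36 to 49.7 ± 9.17 CPM with IL-1β in LacZ (log2 fold change 5.04 ± 0.48, adjusted p = 0.000101) and to 14.5 ± 3.696 in iCre, which was lower than LacZ (log2 fold change -1.79 ± 0.19, adjusted p = 0.000269). S100a10, a plasminogen-binding partner of annexin A2, rose with TNFα in iCre and stood at 420.1 ± 76.4 CPM against 143 ± 36.4 in LacZ (log2 fold change 1.57 ± 0.21, adjusted p = 0.000649); its interaction passed for IL-1β (log2 fold change 1.35 ± 0.28, adjusted p = 0.00642) and TNFα (log2 fold change 1.41 ± 0.31, adjusted p = 0.00487). Both interactions were lost without replicate 3, and that for IL-1β also without replicate 1 (adjusted p up to 0.109 and 0.0818). A2m, a broad protease inhibitor, was lower in iCre with TNFα (log2 fold change -2.89 ± 0.82, adjusted p = 0.0257), a call lost without replicate 3 (adjusted p = 0.129). Procr, the protein C receptor that acts beside thrombomodulin, rose with IL-1β in LacZ from 27.5 ± 6.27 to 98.7 ± 25.8 CPM (log2 fold change 1.86 ± 0.22, adjusted p = 0.000335), where Thbd fell, and was higher than with TNFα (log2 fold change 2.03 ± 0.23, adjusted p = 0.000435). In iCre IL-1β raised Procr (0.94 ± 0.18, adjusted p = 0.00653) and so did TNFα (1.41 ± 0.34, adjusted p = 0.0119), the latter lost without replicate 3 or 4 (adjusted p up to 0.074). There IL-1β against TNFα did not pass (-0.456 ± 0.345, adjusted p = 0.541). With TNFα iCre exceeded LacZ (1.88 ± 0.37, adjusted p = 0.00411). The TNFα interaction of Procr was 1.59 ± 0.45 (adjusted p = 0.0235), lost without replicate 2, 3 or 4 (adjusted p up to 0.186). Pros1, the cofactor of protein C, fell with TGFβ in iCre (log2 fold change -1.14 ± 0.07, adjusted p = 2.22e-06) and more than in LacZ (log2 fold change -0.59 ± 0.12, adjusted p = 0.00662). The interaction was lost without replicate 3 or 4 (adjusted p up to 0.195) and with GC correction, with or without the block. Serpind1 (heparin cofactor II) rose with TNFα in LacZ (log2 fold change 2.31 ± 0.36, adjusted p = 0.00167). Of the coagulation factors, F8 fell with TGFβ in iCre (log2 fold change -2.54 ± 0.20, adjusted p = 6.6e-06), Vwf with TGFβ in LacZ (log2 fold change -1.71 ± 0.41, adjusted p = 0.00828), and F13a1 rose with bFGF in LacZ (log2 fold change 3.73 ± 0.32, adjusted p = 0.000432). The TNFα interaction of F8 was -1.64 ± 0.34 (adjusted p = 0.0034), lost without replicate 3 (adjusted p = 0.086). The median endothelial marker sum was lower in the same TGFβ comparisons, at 8.65 CPM against 25.7 in LacZ CTRL and 5.65 against 13.2 in iCre CTRL, and its part in the F8 and Vwf values was not tested. The thrombin receptor gene F2r rose with TGFβ in LacZ (log2 fold change 1.34 ± 0.14, adjusted p = 4.72e-05) and the protease-activated receptor gene F2rl1 with TNFα in iCre (log2 fold change 3.73 ± 0.88, adjusted p = 0.0108), the latter lost without replicate 3 (adjusted p = 0.0542). Several of these genes had low levels in the comparisons named. Vwf went from 1.13 ± 0.34 to 0.341 ± 0.176 CPM, F13a1 from 0.916 ± 0.184 to 12.07 ± 5.275 and Serpind1 from 0.732 ± 0.170 to 3.615 ± 1.621. A2m stood at 0.371 ± 0.445 CPM in iCre against 2.69 ± 2.42 in LacZ, and F2rl1 went from 0.661 ± 0.780 to 8.57 ± 8.42. The other calls given in this paragraph passed under all alternatives that gave a value.

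Across the 40 libraries the 8 genes did not share one pattern. Between members the highest correlations of log2 CPM were 0.82 for Plau with Thbd and 0.69 for Plat with Thbd, and the lowest were -0.69 for Tfpi2 with Thbd and for Tfpi2 with Plau and -0.65 for Plaur with Tfpi. Of 11389 genes searched, those most like Plaur were Tnfrsf12a (r = 0.951), Msn (0.940) and Fxyd5 (0.936), and those most like Plat were Colec12 (0.928), Prickle2 (0.924) and Gfra1 (0.918). The nearest genes were Dynll2 (0.878) for Serpine2, Net1 (0.870) for Plau, Sh3d21 (0.867) for F3, Ccnh (0.864) for Tfpi, Canx (0.852) for Tfpi2 and Gpsm2 (0.884) for Thbd. These correlations describe 40 points that share ligand groups, the deviations of replicate 2 and the GC slope of 3 iCre groups.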

How the data were processed

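RNA sequencing was performed on polyadenylated RNA of the 40 libraries. The authors aligned the reads to mm10 with STAR and deposited raw counts per Ensembl gene ID (HTSeq 0.10.0, with FastQC 0.10.1 for quality, per the labels); the annotation release and strand setting are not given in the sources used here, and the labels and the study's methods name different library kits. No exon of the 8 genes overlaps an exon of another gene in GENCODE M21. Of 55414 IDs, 52133 matched M21, which holds 99.59% of the counts and gave symbols, coordinates, exon lengths and GC content. All columns were matched to samples by name.

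Counts were tested with edgeR 4.0.16 in R 4.3.3 (TMM, glmQLFit and glmQLFTest, two-sided) on the 8 libraries of each comparison, or on 16 for interactions, over the 25210 genes with at least 10 counts in total. p-values were Benjamini-Hochberg adjusted over these genes and called at 0.05. The SE is the log2 fold change over the square root of F. There were 19 comparisons and 14 alternative settings: DESeq2 1.42.0 (Wald test), RLE factors, raw library sizes, filterByExpr, no filter, protein-coding genes only, each replicate left out in turn, the replicate block, a GC correction (spline with 6 degrees of freedom), both together, and all 40 libraries in one fit. A reversal was counted only where one of the signs belonged to a call. The fits were tested on simulated counts with known changes.

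Replicate numbers come from the sample labels. Same-numbered libraries of the groups compared correlated in their deviations from the group means by at least 0.366, so the numbers were taken to pair them. Without the block the prior degrees of freedom were 3.63 to 4.35; with it they were 5.6 to 148, the highest for IL-1β against CTRL in iCre, where blocked p-values rest mainly on the spread shared by all genes.

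The 8 genes and all lists were chosen with earlier results of these data known. The 8 are named in every comparison. From the wider list, genes that averaged 1 CPM or more in a group and passed in some comparison were named, at most 12, by largest log2 fold change, and 1 of the 12 is not reported here. For likeness, the 3 protein-coding genes with the highest Pearson correlation to each member were taken, on log2 CPM with a prior count of 2, where some group averaged 5 CPM or more. Promoter windows (250 bases before to 50 after the start) are from RefSeq on GRCm38.p6, with 8 windows for 5 of the 8 genes. RPKM was computed from TMM-scaled CPM and union exon length.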

Additional observations from a re-analysis of the deposited data

Results flagged for a closer look

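In 18 of the 80 sets of 4 libraries (8 genes in 10 groups) the highest or lowest library stood apart from the other 3 by Dixon's ratio at the 95% level, where chance gives about 1 in 20. Of the 18, 16 were replicate 2, and it was the high library each time.

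For F3, replicate 2 held 48.2 CPM in LacZ CTRL against 22.2 to 26.4 in the others, 111.6 in LacZ TGFβ against 9.02 to 15.2, and 40.6 in LacZ IL-1β against 7.05 to 11.8. In iCre it held 36.4 CPM with bFGF against 6.99 to 10.8, 87.9 with TGFβ against 8.53 to 15.8, and 63.7 with IL-1β against 8.91 to 15.0. For Plau it held 21.4 CPM in LacZ CTRL against 12.3 to 13.8, 30.3 in LacZ bFGF against 20.9 to 22.5, and 24.0 in LacZ TGFβ against 3.04 to 5.45. In iCre Plau was at 22.98 CPM in replicate 2 with TGFβ against 6.86 to 9.06, and at 70.9 with TNFα against 13.3 to 20.8. For Tfpi it held 129.6 CPM in iCre CTRL against 59.4 to 70.9, 137.7 in iCre bFGF against 60.8 to 72.1, and 99.9 in iCre IL-1β against 45.3 to 51.7. For Thbd it held 439.3 CPM in LacZ CTRL against 209.9 to 248.7, and 541.7 in LacZ bFGF against 205.2 to 261.9. The other cases were Tfpi2 in iCre CTRL replicate 4, at 3.93 CPM against 2.66 to 2.81, and Thbd in iCre TNFα replicate 1, at 249.4 CPM against 321.9 to 334.4.

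The change of Plaur with TNFα differed between iCre and LacZ, with an interaction of 1.92 ± 0.44 on the log2 scale (SE; edgeR, adjusted p = 0.00728; 0.000526 with the replicate block). Plaur was higher with TNFα than in CTRL in 4 of 4 pairs in each virus, and the interaction did not pass without replicate 3 (adjusted p = 0.0905).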

How the results depend on the processing

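Of the 152 results for the 8 genes, 43 passed in edgeR with all libraries, 97 with the replicate block, which kept all 43, and 69 without replicate 2, of which 41 were among the 43. The share of all genes that passed rose with the block too. For ligands in LacZ it was 11.6% to 36.9% per comparison unblocked and 27.3% to 42.0% with the block. For ligands in iCre it was 2.42% to 37.4% and 16.7% to 41.5%. For iCre against LacZ it was 0.0% to 27.3% and 13.9% to 32.2%, and for interactions 0.0% to 16.1% and 0.0% to 25.1%. For IL-1β against TNFα it was 2.65% to 9.62% and 17.1% to 24.2%. Numbers below are calls over all comparisons of a family. For ligands in LacZ the 8 genes had 16 calls, 27 with the replicate block and 27 with block and GC correction, and 9 to 19 on leaving out 1 replicate. For ligands in iCre they had 11, then 23 and 20, and 7 to 19. For iCre against LacZ they had 11, then 28 and 28, 19 with DESeq2, and 7 to 21. For interactions they had 1, then 8 and 5, 2 with DESeq2, filterByExpr or protein-coding genes only, and 0 to 6. For IL-1β against TNFα they had 4, then 11 and 11, 2 with all 40 libraries in one fit, and 3 to 4. The lowest counts came without replicate 3 and the highest without replicate 2, except for IL-1β against TNFα. The wider list had 34 calls for ligands in LacZ (51 and 50 with the block and with block and GC correction; 19 to 41 on leaving out 1 replicate) and 28 in iCre (52 and 48; 14 to 35). It had 13 for iCre against LacZ (44 and 41; 22 with DESeq2; 7 to 18), 6 for interactions (13 and 12; 11 with DESeq2; 1 to 10) and 5 for IL-1β against TNFα (22 and 22; 9 with DESeq2; 2 to 8). The cause of these shifts was not tested.

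On leaving out 1 replicate, F3 with TGFβ ran from -1.13 without replicate 2, a reversal, to 0.53 without replicate 1 in LacZ, and from -0.92, also a reversal, to 0.33 in iCre. GC correction removed 4 calls, 3 of Tfpi and 1 of Tfpi2, and added 1 of Tfpi2 (TNFα in iCre), all with values in the report, and no filter changed none of the 152. Raw library sizes moved the median of all genes by up to -0.44 on the log2 scale (TGFβ against CTRL in iCre), where RLE factors moved it by at most 0.045; no called value of the 8 genes changed sign under either. With 4 replicates and replicate 2 apart from the others, SEs of F3 reached 1.12, which limits what a missed call for this gene can show. The call of Serpine2 with TGFβ in LacZ (0.0483) was lost without any 1 of the 4 replicates, while the log2 fold change without replicate 2 (-0.60) was close to that with all 4 (-0.59).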
